A study of Rattus norvegicus with 97 samples.

Results

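Protein tyrosine phosphatases remove phosphate groups from tyrosine residues and so oppose the tyrosine kinases. Receptor-type enzymes (Ptpr genes) span the membrane and meet adhesion proteins and secreted ligands outside the cell, whereas non-receptor enzymes (Ptpn genes) act in the cytoplasm. Dual specificity phosphatases (Dusp genes) also act on serine and threonine, and the MAP kinase phosphatases among them switch off MAP kinases, some of them as genes that neuronal activity itself induces. The genes described here are those whose single symbol in the platform annotation begins with Ptpn, Ptpr or Dusp in the form of a phosphatase gene name, with Ptpn5 left out. There were 55 such genes with 90 probe sets, out of 14217 genes with a symbol and 31042 probe sets tested, and each gene was read from the probe set with the highest mean over all arrays. They comprised 19 receptor-type genes, 14 non-receptor genes, 9 MAP kinase phosphatases, 11 atypical dual specificity genes, and 2 symbols that fit the pattern but stand apart. These last are Ptprcap, which encodes a protein associated with the leukocyte phosphatase CD45 and is not itself a phosphatase, and Ptprdl, which is given by its symbol only.

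The tissue was the shell of the rat nucleus accumbens, part of the ventral striatum and of the reward circuit, and the animals came from 5 pairs of lines bred to drink much or little alcohol. With the alcohol-preferring line first, the pairs are P/NP, HAD1/LAD1, HAD2/LAD2, AA/ANA and sP/sNP. Every line had 10 animals with 1 array each, except LAD1, sP and sNP, which had 9. The labels name no treatment, sex or age, and each line is a single bred population, so that preference and any other difference between the lines of a pair cannot be told apart. The 11 measured markers of medium spiny neurons, the principal striatal cells, had line means of log2 signal between 11.4 and 12.5.

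Some features of the arrays touch the results below. On 8 arrays the 50 probe sets that best separate the lines of a pair did not give the value of the labelled line: NP 9, HAD1 28, LAD1 37, AA 19 and ANA 20 had the value of the partner line, and P 9, sP 4 and sNP 4 lay between the lines. Over all probe sets AA 19 correlated best with sP, ANA 20 with sNP, and NP 9 with its own line. All arrays kept their labels, and results that rest on these arrays are given with and without them. The highest correlation between any pair of arrays, 0.998, was between sP 4 and sNP 4. Sorted array values differed by at most 0.31 within a line pair but by up to 1.283 over all arrays. Array distributions were thus alike within a pair, whereas levels are not on a common scale between pairs. Alike distributions do not show that every probe set is on a common scale within a pair. A 3′ minus 5′ Gapdh signal, a measure of transcript integrity, averaged 4.71 and 4.89 in HAD1 and LAD1, 2.91 and 2.83 in HAD2 and LAD2, and from 0.087 to 0.47 in the other lines.

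The 4 phosphatase classes each held bright and dim probe sets. Mean log2 signals ran from 4.86 (Ptprq) to 12.8 (Ptprs) among receptor-type genes, from 5.16 (Ptpn22) to 12.7 (Ptpn11) among non-receptor genes, from 5.01 (Dusp9) to 10.1 (Dusp1) among MAP kinase phosphatases and from 6.27 (Dusp13b) to 12.7 (Dusp3) among atypical dual specificity genes. These means place no gene above another, because each probe set has its own brightness. The median standard deviation between animals of a line was 0.177 for the 55 genes and 0.167 for all 31042 probe sets. It was smallest for Dusp12 (0.0968) and largest for Ptpn3 (0.891).

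The question put to each line pair was which phosphatase genes differed between the line that prefers alcohol and the line that does not. Each difference is a log2 value of the preferring line less that of its partner, tested per pair with limma's moderated test, and a gene was called at a Benjamini-Hochberg adjusted p under 0.05 over all probe sets. In P/NP none of the 55 genes was called, where 1.05% of all probe sets were. In HAD1/LAD1 none was called against 1.2% of all probe sets, and in AA/ANA none against 2.35%. At an unadjusted p under 0.05 there were 6, 1 and 2 genes in these pairs, where 7.63%, 9.89% and 9.74% of all probe sets passed. HAD2/LAD2 had 2 called genes (3.64% of the 55, against 4.6% of all probe sets), and sP/sNP had 12 (21.8%, against 12.9%). Over all 90 probe sets of these genes the share called in sP/sNP was 18.9%. With the dimmest 25% of probe sets left out, 14 genes were called there, against 19% of the probe sets kept. Dusp12 was the single gene called lower and Ptprn2 the single gene called higher in HAD2/LAD2. In sP/sNP 8 genes were called lower and 4 higher, where 5.83% and 7.08% of all probe sets were. The median difference over the 55 genes was -0.0019 in P/NP, 0.015 in HAD1/LAD1, -0.025 in HAD2/LAD2, 0.0010 in AA/ANA and -0.0029 in sP/sNP, beside medians over all probe sets between -0.0053 and 0.0019. The middle size of a difference, without its sign, was 0.134 in sP/sNP (0.0836 over all probe sets) and between 0.056 and 0.075 in the other pairs (0.0488 to 0.0567 over all probe sets).

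By class, the called genes in sP/sNP were 5 of the 19 receptor-type genes (1 higher, 4 lower), 3 of the 14 non-receptor genes (1 higher, 2 lower), 3 of the 11 atypical dual specificity genes (2 higher, 1 lower) and Ptprdl. None of the 9 genes classed here as MAP kinase phosphatases was called in any pair. Dusp14, also known as MKP6, was counted among the atypical genes. In the class of 9 the widest differences were those of Dusp1 in P/NP (0.298), Dusp2 in sP/sNP (-0.27) and Dusp5 in AA/ANA (0.265). Among receptor-type genes the differences in P/NP ran from -0.23 for Ptprc, the leukocyte antigen CD45, to 0.164 for Ptpru, and in AA/ANA from -0.186 for Ptprz1 to 0.089 for Ptprq. In HAD1/LAD1 they ran from -0.114 for Ptprv to 0.23 for Ptprk, an adhesion receptor. None of these was called.

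**Figure D1:**
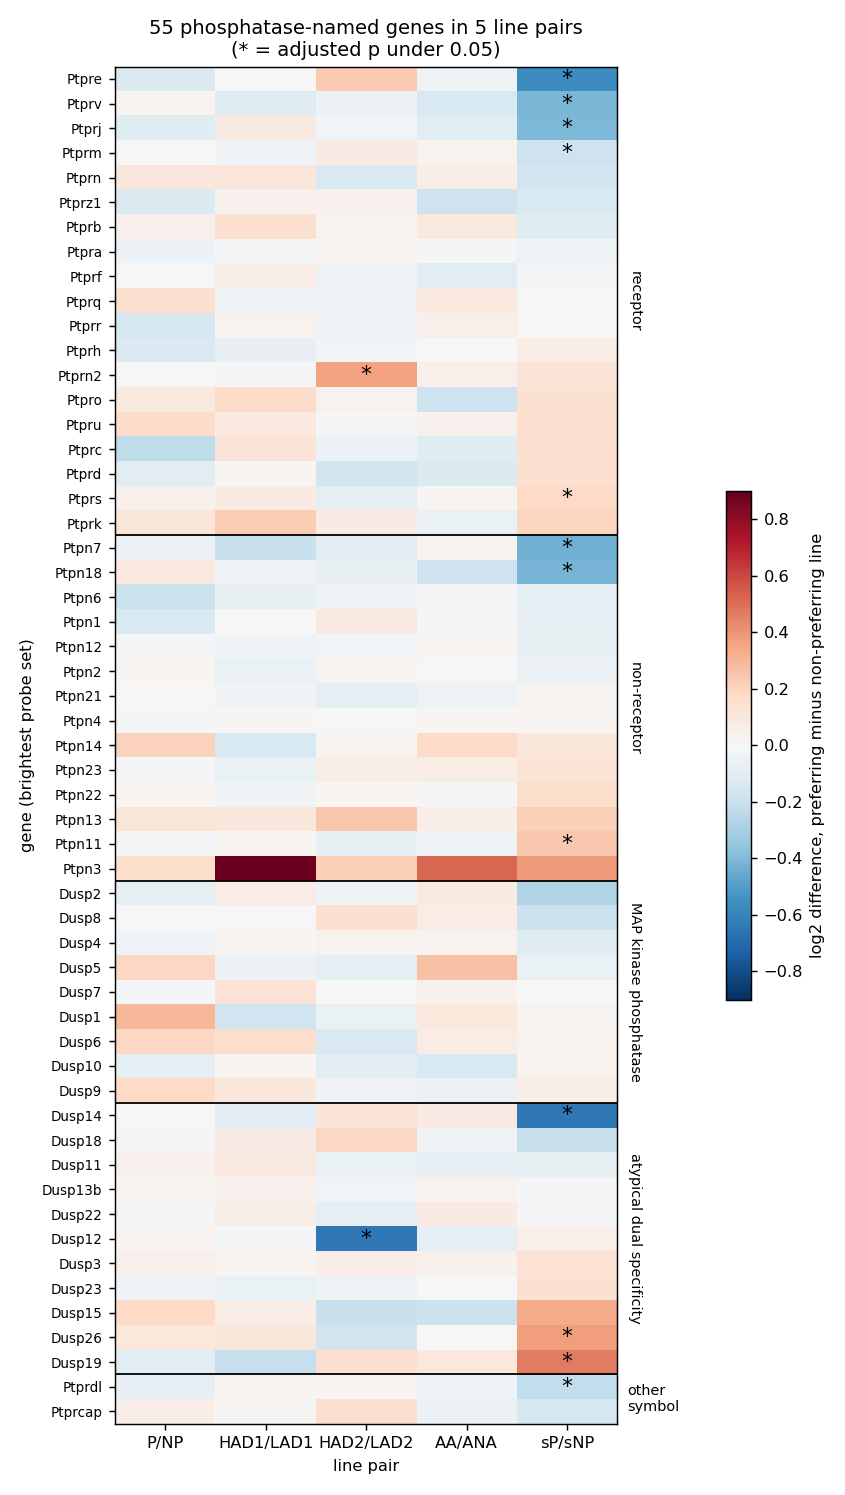
Log2 difference (preferring minus non-preferring line, colour) of the brightest probe set of 55 genes (rows, grouped by class and sorted by the sP/sNP difference) in 5 line pairs (columns), with a star where the adjusted p was under 0.05. Stars appear for 2 genes in HAD2/LAD2 and 12 in sP/sNP, and the strongest colours without a star are those of Ptpn3 (0.88 in HAD1/LAD1).

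Among the receptor-type genes, Ptprj had wide line differences on its dimmer probe set. On its brighter probe set the widest was -0.41, in sP/sNP, where Ptpre had -0.57. Ptprj encodes a phosphatase with fibronectin repeats outside the cell, known for acting on growth factor receptors and Src family kinases. It was read by a brighter and a dimmer probe set, and the dimmer separated lines of several pairs. In HAD1 its log2 signals had a lowest value of 8.69, a median of 9.04 and a highest value of 11.2, against 8.56, 10.98 and 11.44 in LAD1. The 9 HAD1 arrays other than HAD1 28 lay at or below 9.77 and the 8 LAD1 arrays other than LAD1 37 lay at or above 10.75, so the overlap came from the arrays HAD1 28 and LAD1 37. The direction was turned in HAD2/LAD2: HAD2 arrays ran from 10.59 through a median of 11.23 to 11.46, and LAD2 arrays from 9.12 through 9.5 to 10.79. HAD2 lay above LAD2, except that LAD2 20, the highest LAD2 array, reached into the HAD2 range.

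In the other pairs the dimmer Ptprj probe set ran from 7.805 through a median of 8.60 to 8.94 in P and from 8.57 through 8.94 to 9.46 in NP, and the ranges overlapped. AA arrays ran from 8.74 through 10.47 to 11.2, a wide range, and ANA arrays from 9.77 through 11.03 to 11.16. In sP the values were 9.71, 10.4 and 10.73, and in sNP they were 9.43, 9.53 and 10.15, so that sP was higher with some overlap.

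The dimmer Ptprj probe set was called in HAD1/LAD1, HAD2/LAD2 and sP/sNP, in 1 of them with the preferring line lower. Its difference was -1.45 ± 0.33 (SE, a 2.74-fold lower linear signal in HAD1, limma adjusted p = 0.031) in HAD1/LAD1, and 1.42 ± 0.19 (2.67-fold higher in HAD2, limma adjusted p = 3.82e-05) in HAD2/LAD2. It was 0.71 ± 0.13 (1.63-fold higher in sP, limma adjusted p = 0.00252) in sP/sNP. In P/NP (-0.51 ± 0.15, adjusted p = 0.14) and AA/ANA (-0.77 ± 0.28, adjusted p = 0.22) it was not called by limma. Without the 8 arrays named above, the HAD1/LAD1 difference was -1.94 ± 0.13 (3.83-fold, limma adjusted p = 4.27e-09), and the arrays of the lines no longer overlapped, as for 1.12% of all probe sets. Those arrays were chosen, on probe sets of other genes, for not following their labels. Leaving them out therefore favours a wider separation of the lines. The share of all probe sets called in HAD1/LAD1 rose as well, from 1.2% to 3.98%. With every array kept, leaving out any 1 of 16 of the 19 arrays in HAD1/LAD1 put the limma adjusted p above the threshold, at most 0.0684, whereas the difference stayed between -1.73 and -1.37. With an index of cell makeup, the mean signal of the spiny neuron markers less that of markers of pallidum, septum and basal forebrain (the spiny minus pallidal index), as a covariate the HAD1/LAD1 difference was -1.15 and was not called (limma adjusted p = 0.205), in a fit that called 0.0483% of all probe sets. The limma F test that the 5 differences are equal gave F = 22.4 (adjusted p = 1.43e-10). In this test 11.7% of all probe sets were called.

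The brighter Ptprj probe set gave other values. Its differences were -0.11 in P/NP, 0.082 in HAD1/LAD1, -0.024 in HAD2/LAD2 and -0.10 in AA/ANA, none of them called. In sP the log2 signals had a lowest value of 9.79, a median of 10.35 and a highest value of 10.58, against 10.17, 10.72 and 11.14 in sNP. sP was lower, by -0.41 ± 0.13 (limma adjusted p = 0.0429), with overlap between the lines, so that in sP/sNP the probe sets of Ptprj were called in opposite directions. The call of the brighter probe set was lost with the spiny minus pallidal marker index as a covariate (-0.070, limma adjusted p = 1.0) and with the Gapdh signal (-0.42, limma adjusted p = 0.0871). This was the only such case among 115 combinations of a line pair with a gene read by several probe sets; all probe sets of the gene had the same sign in 63 of these. What part of the transcript each Ptprj probe set reads was not analysed here.

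**Figure D2:**
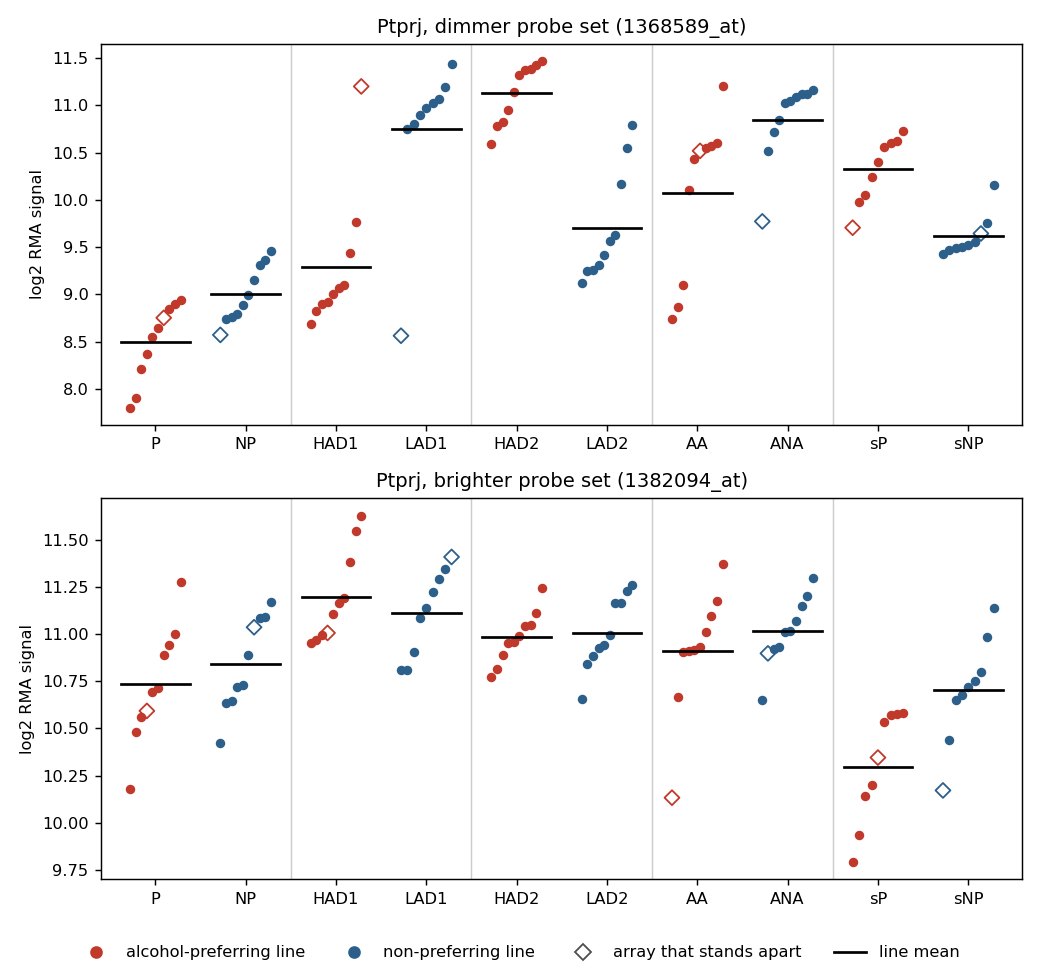
Log2 RMA signal of both Ptprj probe sets on each of the 97 arrays, by line, with values sorted within a line, line means as bars and the 8 arrays that stand apart as open diamonds. The dimmer probe set (upper panel) was lower in HAD1 than in LAD1 except on HAD1 28 and LAD1 37, and higher in HAD2 than in LAD2, whereas the brighter (lower panel) showed overlapping ranges in all pairs.

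Of the 10 genes nearest to Ptprj in the RefSeq order of the GRCr8 assembly, 4 were measured. One of them, Fnbp4, which encodes a formin binding protein, was called higher in HAD1 (0.76, limma adjusted p = 0.00393) and lower in HAD2 (-0.55, limma adjusted p = 0.000723), each time with the sign opposite to that of the dimmer Ptprj probe set. In these pairs 1.2% and 4.6% of all probe sets were called. Without the 8 arrays C1qtnf4 was called lower in HAD1 (-0.37, limma adjusted p = 0.00132), the sign of the dimmer Ptprj probe set. By another probe set it was called lower in sP (-0.39, limma adjusted p = 0.0496), the opposite sign. Then 3.98% (HAD1/LAD1) and 15% (sP/sNP) of all probe sets were called.

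Secondary probe sets of Ptpn4 and Ptprd, singled out after their values were seen, also differed between lines. Ptpn4 encodes a cytoskeleton-associated enzyme with a PDZ domain. A dimmer probe set of Ptpn4 had a median of 8.95 in P and 8.07 in NP, of 6.84 in HAD1 and 8.04 in LAD1, and of 8.04 in AA and 8.94 in ANA. It was higher in P and lower in HAD1 and AA than in the partner line, with overlapping arrays in each pair. Differences were 0.69, -0.86 and -0.78 with all arrays (limma adjusted p = 0.0579, 0.0614 and 0.101), and 0.85, -1.10 and -0.88 without the 8 arrays (limma adjusted p = 0.00316, 0.000769 and 0.0166), in fits where 661 of 31042 probe sets (P/NP), 3.98% (HAD1/LAD1) and 4.44% (AA/ANA) were called. The F test gave an adjusted p of 3.59e-05 with limma on all arrays. The brightest probe set of Ptpn4 was called in no pair. Of 9 measured neighbours of Ptpn4, 1 was called in AA/ANA, where 2.35% of all probe sets were. This was Epb41l5, a band 4.1 family gene, lower in AA (-0.52, limma adjusted p = 0.00229). Ptprd encodes a synaptic organiser of the LAR group, and a dimmer probe set of it was lower in P than in NP by -0.75 and in AA than in ANA by -0.29, without the 8 arrays (limma adjusted p = 0.0418 and 0.000951). With all arrays these differences were -0.57 and -0.24 (limma adjusted p = 0.312 and 0.958), and the AA/ANA value ran from -0.45 without AA 19 to -0.079 without ANA 20. With all arrays no pair call was made for these probe sets of Ptpn4 and Ptprd. The 8 arrays were chosen for not following their labels, so leaving them out favours such calls.

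In HAD2/LAD2, Dusp12 and Ptprn2 were the called genes. Dusp12 encodes an atypical dual specificity phosphatase with a zinc-binding tail. Its log2 signals had a lowest value of 7.14, a median of 7.37 and a highest value of 7.51 in HAD2, against 7.78, 8.01 and 8.17 in LAD2. No HAD2 array reached the lowest LAD2 array. The difference was -0.64 ± 0.051 (SE, 1.56-fold lower, limma adjusted p = 1.02e-08). In the other pairs Dusp12 differed by 0.015 (P/NP), -0.021 (HAD1/LAD1), -0.083 (AA/ANA) and 0.048 (sP/sNP), none of them called. Ptprn2 encodes phogrin, a dense-core vesicle membrane protein with a phosphatase-like domain. Its signals ran from 11.45 through a median of 11.64 to 11.71 in HAD2 and from 11.12 through 11.26 to 11.38 in LAD2, again with no overlap. HAD2 was higher by 0.36 ± 0.041 (1.284-fold, limma adjusted p = 3.8e-06). Its differences in the other pairs were between -0.021 and 0.114, none called. Arrays that do not overlap were found for 2 of the 55 genes and for 0.918% of all probe sets in this pair. For both genes the call held when any 1 array was left out.

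**Figure D3:**
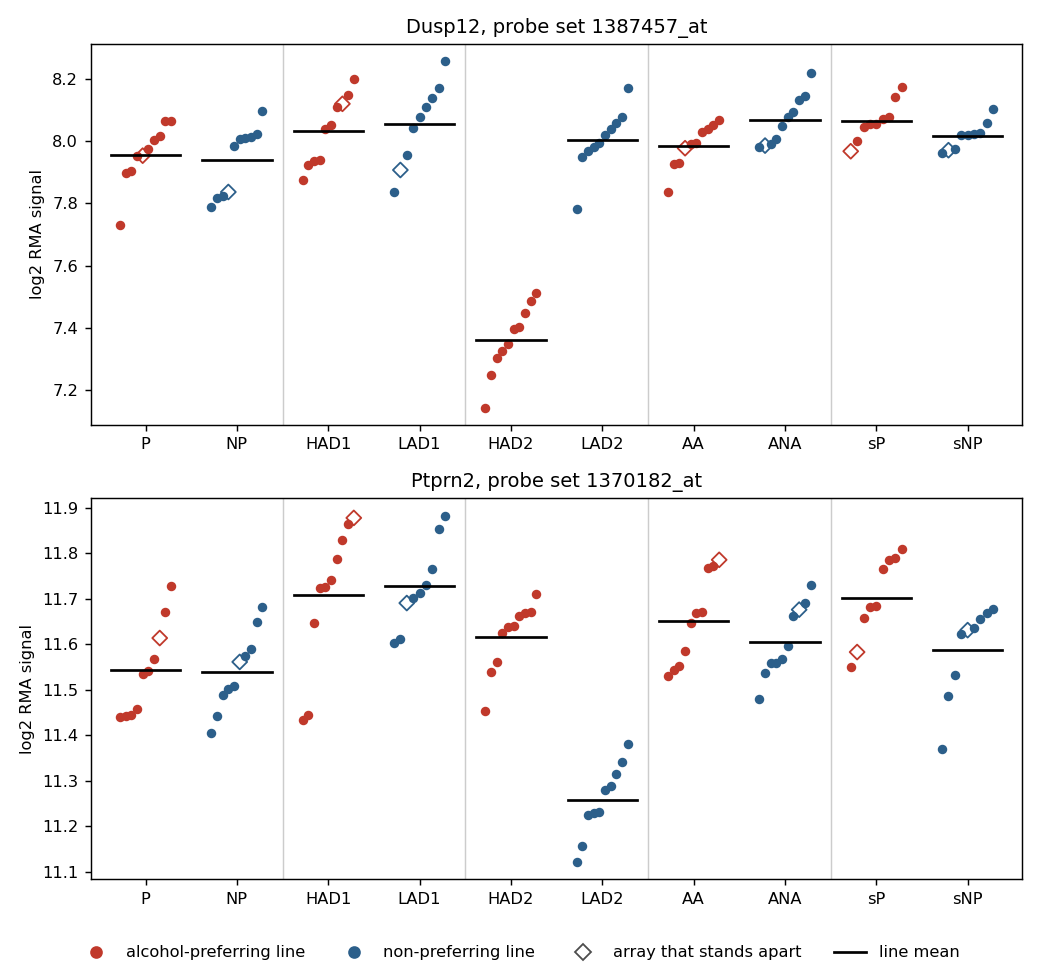
Log2 RMA signal of Dusp12 and Ptprn2 on each array, by line, with values sorted within a line, line means as bars and the 8 arrays that stand apart as open diamonds. The 10 HAD2 arrays lay at or below 7.51 for Dusp12, below every LAD2 array, and at or above 11.45 for Ptprn2, above every LAD2 array.

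Cell markers also differed in HAD2/LAD2: 1 of 12 microglial markers was higher and 2 lower in HAD2, 5 of 10 oligodendrocyte markers and 3 of 8 endothelial markers were lower, and 3 of 7 mural and meningeal markers were higher, by the same limma fit. The marker means ran from 10.9 to 11.3 in HAD2 and from 11.1 to 11.9 in LAD2 for oligodendrocytes, from 9.19 to 9.47 and from 9.25 to 9.67 for endothelium, and from 7.39 to 8.08 and from 7.29 to 7.71 for mural and meningeal cells. Their part in the Dusp12 and Ptprn2 differences was not tested. In such tissue samples, fewer cells of a type and less RNA per cell cannot be told apart. Among the genes measured near Dusp12, 1 of 6 was called: Nos1ap, an adaptor of neuronal nitric oxide synthase, was higher in HAD2 (0.41, limma adjusted p = 0.0114). Near Ptprn2, 1 of 7 was called: Esyt2, a membrane tether of the endoplasmic reticulum, was lower in HAD2 (-0.44, limma adjusted p = 0.000115). In this pair 4.6% of all probe sets were called.

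The sP/sNP pair held the largest number of called genes. Ptpn18, a PEST-domain phosphatase known to act on ErbB receptors, had log2 signals of 9.2 (lowest), 9.43 (median) and 9.67 (highest) in sP, against 9.73, 9.85 and 10.02 in sNP. All 9 sP arrays lay below all 9 sNP arrays, as for 0.49% of all probe sets. The difference was -0.42 ± 0.065 (SE, 1.336-fold lower, limma adjusted p = 0.000537), and the other Ptpn18 probe set was also lower (-0.21, limma adjusted p = 0.037). Near Ptpn18, 1 of 7 measured genes was called, Amer3, lower in sP (-0.31, limma adjusted p = 0.00974). Dusp19, an atypical phosphatase linked to the JNK pathway, ran from 7.82 through a median of 8.27 to 8.4 in sP and from 7.45 through 7.71 to 7.998 in sNP. It was higher in sP by 0.47 ± 0.089 (1.386-fold, limma adjusted p = 0.00369). Ptpn11 encodes SHP2, which carries signals from growth factor receptors to the Ras pathway. Its values were 11.97, 12.13 and 12.36 in sP and 11.6, 11.89 and 12.002 in sNP, with overlap. The difference was 0.24 ± 0.057 (limma adjusted p = 0.0164).

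Further enzymes were lower in sP. Dusp14, also known as MKP6, had log2 signals of 9.68 (lowest), 10.48 (median) and 10.93 (highest) in sP, against 10.5, 10.96 and 11.18 in sNP. Ptpre, the phosphatase epsilon with receptor and cytoplasmic forms, had 8.4, 9.06 and 9.55 in sP, against 9.17, 9.63 and 9.88 in sNP. Ptpn7, the kinase-binding enzyme HePTP first known from blood cells, had 6.76, 7.41 and 7.66 in sP, against 7.11, 7.83 and 7.99 in sNP. Each of these sets overlapped, with the lowest arrays in sP. Differences were -0.64 ± 0.17 for Dusp14, -0.57 ± 0.16 for Ptpre and -0.43 ± 0.14 for Ptpn7 (limma adjusted p = 0.0302, 0.0307 and 0.0466). The second Ptpn7 probe set was also lower (-0.66, limma adjusted p = 0.0459). Ptprv, a receptor-type gene and the RefSeq neighbour of Ptpn7, was lower by -0.41 ± 0.13 (limma adjusted p = 0.0432). Ptprm, a receptor that binds its like on other cells, was lower by -0.19 ± 0.057 (limma adjusted p = 0.0389), and Ptprdl by -0.22 ± 0.064 (limma adjusted p = 0.0358).

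Higher in sP were Dusp26, a neuronal atypical phosphatase, by 0.38 ± 0.12 (limma adjusted p = 0.0407), and Ptprs, the receptor sigma that binds proteoglycans and synaptic partners, by 0.18 ± 0.05 (limma adjusted p = 0.0314). Dusp26 arrays ran from 10.92 through a median of 11.22 to 11.61 in sP and from 10.51 through 10.86 to 11.26 in sNP, with overlap. Ptprcap differed by -0.14 (adjusted p = 0.251) and was called in no pair. None of the 9 MAP kinase phosphatases was called in sP/sNP, where their median difference was -0.00021 and their range ran from -0.27 (Dusp2) to 0.056 (Dusp9).

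Dimmer probe sets of Ptpn14 (-0.118, limma adjusted p = 0.0472) and Ptpn3 (0.24, limma adjusted p = 0.0418) were also called in sP/sNP, whereas the brightest probe sets of these genes were not. Of the genes near the called members, Heatr6 (-0.21) and Ddx52 (-0.27) beside Dusp14, Tti2 (-0.23) beside Dusp26 and Mtcl1 (-0.39) beside Ptprm were lower in sP by limma. Lurap1l (0.66) beside Ptprdl, C1h10orf143 (0.45) beside Ptpre and Syt2 (0.23), a synaptotagmin gene beside Ptpn7 and Ptprv, were higher. Called in sP/sNP were 2 of 8 measured neighbours of Dusp14, 1 of 4 of Dusp26 and 1 of 4 of Ptprm. For Ptprdl it was 1 of 7, for Ptpre 1 of 6, and for Ptpn7 and Ptprv 2 of 9 each. None of the measured neighbours of Dusp19 (6), Ptpn11 (5), Ptprs (6) or Ptprj (4) was called. In this pair 12.9% of all probe sets were called, and whether the neighbours differ from that share was not tested.

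Without sP 4 and sNP 4 the number of called genes in sP/sNP was 15 (15% of all probe sets were called): Dusp15 (0.37), Dusp2 (-0.32), Dusp3 (0.15) and Ptpn13 (0.27) were added and Ptprv (-0.41, adjusted p = 0.0626) was lost, by limma. The count depended on single arrays, and the share of all probe sets called moved with it. It was 3 without sNP 1, sP 2, sNP 3, sP 5, sP 8, sP 9 or sNP 9 (3.32% to 4.1% of all probe sets), 4 without sNP 5 (4.25%), 7 without sNP 6 (7.66%) and 20 without sP 3 (18.8%). Dusp19, Ptpn11 and Ptpn18 kept their calls whichever array was left out, and the other 9 genes lost theirs on leaving out any of 7 to 11 of the 18 arrays.

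Markers of spiny neurons also differed in sP/sNP. Of 11 measured spiny markers 10 were called lower in sP (median difference -0.996), among them Drd2 (-0.996), Penk (-0.79), Foxp1 (-0.84) and Adora2a (-1.30). The mean of the spiny markers ran from 10.2 to 12.4 in sP and from 11.7 to 12.6 in sNP. Of 6 measured markers of pallidum, septum and basal forebrain 2 were called higher, Zic1 (0.25) and Pvalb (1.07), and their mean ran from 8.14 to 8.99 in sP and from 7.49 to 8.63 in sNP. Called higher were also 3 of 9 astrocyte, 2 of 7 mural and meningeal and 1 of 10 oligodendrocyte markers, and called lower 2 of 8 endothelial markers; the mural and meningeal mean ran from 7.77 to 8.72 in sP and from 7.47 to 8.31 in sNP. The part of these lists in the phosphatase differences was not tested. The spiny minus pallidal index was 2.77 ± 1.236 in sP and 4.26 ± 0.70 in sNP (mean ± SD, n = 9 each), a difference of -1.49 (exact permutation test, two-sided, p = 0.00687, adjusted p = 0.0687 over 10 tests). With this index as a covariate 1 of the 55 genes, Ptpn18 (-0.31, limma adjusted p = 0.0408), was called in sP/sNP, and the share of all probe sets called fell as well, to 1.02%. With the Gapdh signal as covariate 3 of the 55 genes and 2.78% of all probe sets were called. With the marker index the limma differences were -0.057 for Dusp14, -0.059 for Ptpre, -0.025 for Ptpn7 and -0.056 for Ptprdl, and 0.37 for Dusp19 (adjusted p = 0.158).

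The relation to this index was then read in the 79 arrays of the other 8 lines, each value centred on its line mean. Pearson's r was above 0.5 for 11 of the 55 genes (20%, against 11.8% of all probe sets) and below -0.5 for 10 (18.2%, against 13.1%). Permutation p-values were adjusted over 56 relations. Ptpn7 (r = 0.935, rho = 0.895), Ptpre (r = 0.922, rho = 0.875) and Dusp14 (r = 0.915, rho = 0.846) followed the index most closely. Ptprd (r = -0.872, rho = -0.886) and Dusp26 (r = -0.858, rho = -0.829) ran against it. For each of these 5 genes the permutation p was 1e-05, the smallest the permutations can give, and 3.11e-05 after adjustment. Without the arrays P 3 and P 5, farthest from the median of the index, r was 0.922 for Ptpn7, 0.899 for Ptpre, 0.894 for Dusp14, -0.875 for Ptprd and -0.835 for Dusp26. The sign was negative in all 8 lines for Ptprd and Dusp26, positive in 8 for Ptpre and positive in 7 of 8 for Ptpn7 and Dusp14. All 11 genes with r above 0.5 had a negative sP/sNP difference, and 9 of the 10 with r below -0.5 had a positive one. The 12 genes called in sP/sNP all had a sign opposite to that of r. In these 79 arrays Dusp19 (r = -0.135) and Ptprdl (r = 0.0518) had little relation to the index. The sP/sNP difference of Ptprdl was nevertheless -0.056 with the index as a covariate, against -0.22 without it. Across the 55 genes, which are not independent replicates, the sP/sNP difference and r correlated at -0.808. These signs and this correlation were not read over all probe sets. Whether they are particular to the phosphatase genes was not tested.

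**Figure D4:**
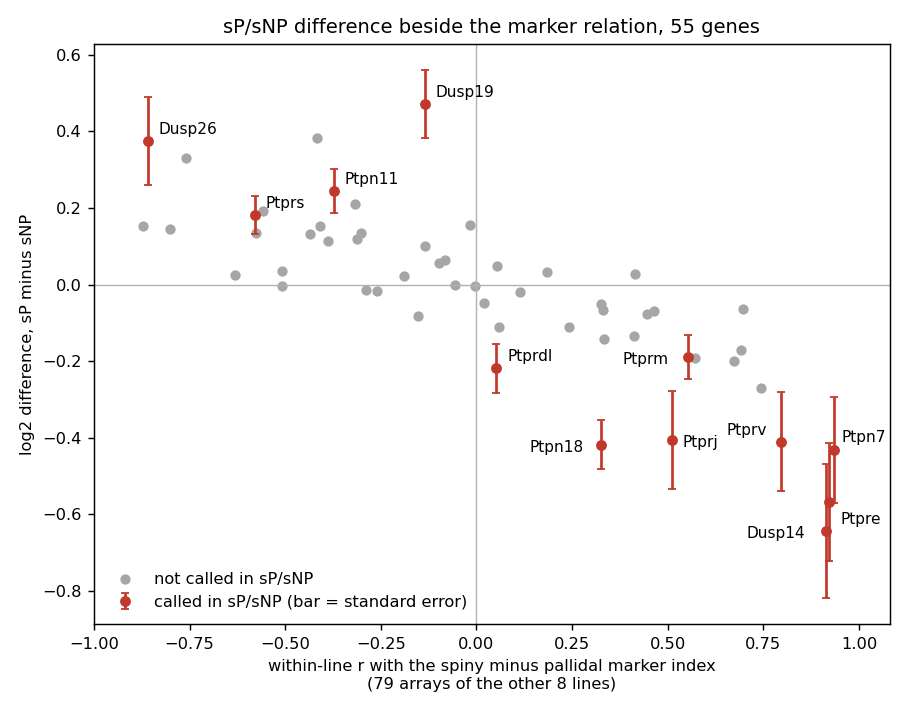
Log2 difference sP minus sNP (vertical axis) against the within-line Pearson r with the spiny minus pallidal marker index in 79 arrays of the other 8 lines (horizontal axis) for 55 genes, with the 12 called genes in red and their standard errors as bars. Ptpn7, Ptpre and Dusp14 lie at the lower right and Dusp26 at the upper left, whereas Dusp19 and Ptprdl lie near r of 0.

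Kinases and partners of the phosphatases were called mainly in sP/sNP, where 2 of 12 MAP kinases and activators, 2 of 8 Src family kinases and regulators and 2 of 17 ligands and partners of receptor phosphatases passed, beside 12.9% of all probe sets. Among the 12 measured MAP kinases and activators, Map2k1 was lower (-0.43) and Map2k2 higher (0.20) in sP, and Map2k6, an activator of p38, was higher in HAD2 (0.29, limma adjusted p = 0.0225). None was called in P/NP, HAD1/LAD1 or AA/ANA. Of the 8 measured Src family kinases and regulators, Fyn (0.19) and its inhibitor kinase Csk (0.47) were higher in sP by limma, and none was called in another pair. Of the 17 measured ligands and partners of receptor phosphatases, the growth factor Mdk (0.23), a ligand of Ptprz1, and Slitrk1 (0.48), a synaptic partner of Ptprd and Ptprs, were higher in sP, again with none called elsewhere. The median differences of these lists in sP/sNP were 0.040, 0.020 and 0.054.

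A limma fit to all 97 arrays gave the average of the 5 differences, and 4 of the 55 genes were called (7.27%, against 3.37% of all probe sets, and 3 against 4.94% without the 8 arrays). Ptpn13, a large non-receptor phosphatase with PDZ domains, was higher on average by 0.147 ± 0.035 (limma adjusted p = 0.00488). Its difference was positive in each pair: 0.107 in P/NP, 0.105 in HAD1/LAD1, 0.25 in HAD2/LAD2, 0.060 in AA/ANA and 0.21 in sP/sNP, none of them called alone with all arrays. These signs come from the same differences as the average. Genes with 1 sign in all pairs were not counted. The other 3 called genes were Dusp12 (-0.137), Ptpn18 (-0.124) and Ptprn2 (0.101) (limma adjusted p = 7.82e-07, 0.0481 and 0.000652). Each of these 3 was called in 1 pair with all arrays, Dusp12 and Ptprn2 in HAD2/LAD2 and Ptpn18 in sP/sNP. The call of Ptpn18 was lost on leaving out any of 59 arrays, with an adjusted p of at most 0.0767, and without the 8 arrays (adjusted p = 0.0696). When the 5 differences of line means served as the replicates, limma called none of the 55 genes and none of the 31042 probe sets, and the adjusted p was 0.948 for all 4. The F test of equal differences called 4 brightest probe sets (7.27%, against 11.7% of all probe sets): Dusp12 (F = 41.0), Ptprn2 (F = 11.1), Dusp19 (F = 6.24) and Ptpn18 (F = 4.88). Without the 8 arrays it called 7 (17.5% of all probe sets).

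The MAP kinase phosphatases Dusp1, Dusp4, Dusp5 and Dusp6, among them enzymes whose genes are induced along with immediate early genes, were compared with an index of 9 measured immediate early genes within lines. The RefSeq promoters of Dusp1 and Dusp5, which followed that index most closely, are shown because of the motifs searched in them: the cyclic AMP response element TGACGTCA, bound by CREB, the letters GCGGGGGCG, bound by EGR proteins, and the CArG box, bound by serum response factor, on both strands. Each runs from 250 bases before to 50 bases after the annotated start, on the plus strand of GRCr8 at chr10:17184603-17184902 for Dusp1 and chr1:262543524-262543823 for Dusp5, with matches in capitals.
Dusp1: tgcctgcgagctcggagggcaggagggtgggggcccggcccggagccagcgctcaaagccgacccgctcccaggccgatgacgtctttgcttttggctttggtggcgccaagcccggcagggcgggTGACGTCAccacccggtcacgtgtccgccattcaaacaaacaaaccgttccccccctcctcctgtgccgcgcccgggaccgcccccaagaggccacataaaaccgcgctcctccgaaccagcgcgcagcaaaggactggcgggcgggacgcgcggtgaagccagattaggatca
Dusp5: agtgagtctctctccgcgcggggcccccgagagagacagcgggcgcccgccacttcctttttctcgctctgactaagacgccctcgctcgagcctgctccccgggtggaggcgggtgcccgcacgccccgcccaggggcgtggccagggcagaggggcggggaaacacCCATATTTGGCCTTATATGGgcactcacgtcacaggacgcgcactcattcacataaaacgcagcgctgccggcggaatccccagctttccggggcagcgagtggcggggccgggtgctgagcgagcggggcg
The Dusp1 window held 1 such response element, beginning at -124, and the Dusp5 window held adjoining CArG boxes. Of all 33469 promoter windows 1.83% held the response element, 2.73% the EGR letters and 1.64% a CArG box. Among 49 windows of 46 of the phosphatase genes, 4 held the response element (Dusp1, Dusp11, Ptprs and Ptpru), 1 a CArG box (Dusp5) and 7 the EGR letters (Dusp2, Dusp8, Dusp22, Dusp23, Ptpn1, Ptpn2 and Ptpre). The Dusp6 window held none of these motifs. A match describes letters and not a bound site.

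Over the 97 arrays, centred on line means, Dusp1 had r = 0.825 with the immediate early index (rho = 0.818), positive within 10 of 10 lines, and Dusp5 had r = 0.796 (rho = 0.778), also positive in 10 of 10. The adjusted permutation p over 8 relations was 2.67e-05 for both, from 1e-05, the smallest the permutations can give. Without the arrays P 3 and P 5, which lay farthest from the median of the index, r was 0.826 and 0.774. Dusp6 followed less closely (r = 0.44, rho = 0.398, adjusted permutation p = 8e-05, positive in 9 of 10 lines, r = 0.451 without the same arrays). Dusp4 (r = 0.229, rho = 0.18, adjusted permutation p = 0.0483 for r and 0.107 for rho) had r = 0.13 without the 8 arrays that stand apart (adjusted permutation p = 0.336). The immediate early index also moved with the spiny minus pallidal index within lines (r = 0.719 over 97 arrays), and Dusp5 (r = 0.698) and Dusp1 (r = 0.415) did so in the 79 arrays. The part of the spiny index in the relations to immediate early genes was not tested.

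**Figure D5:**
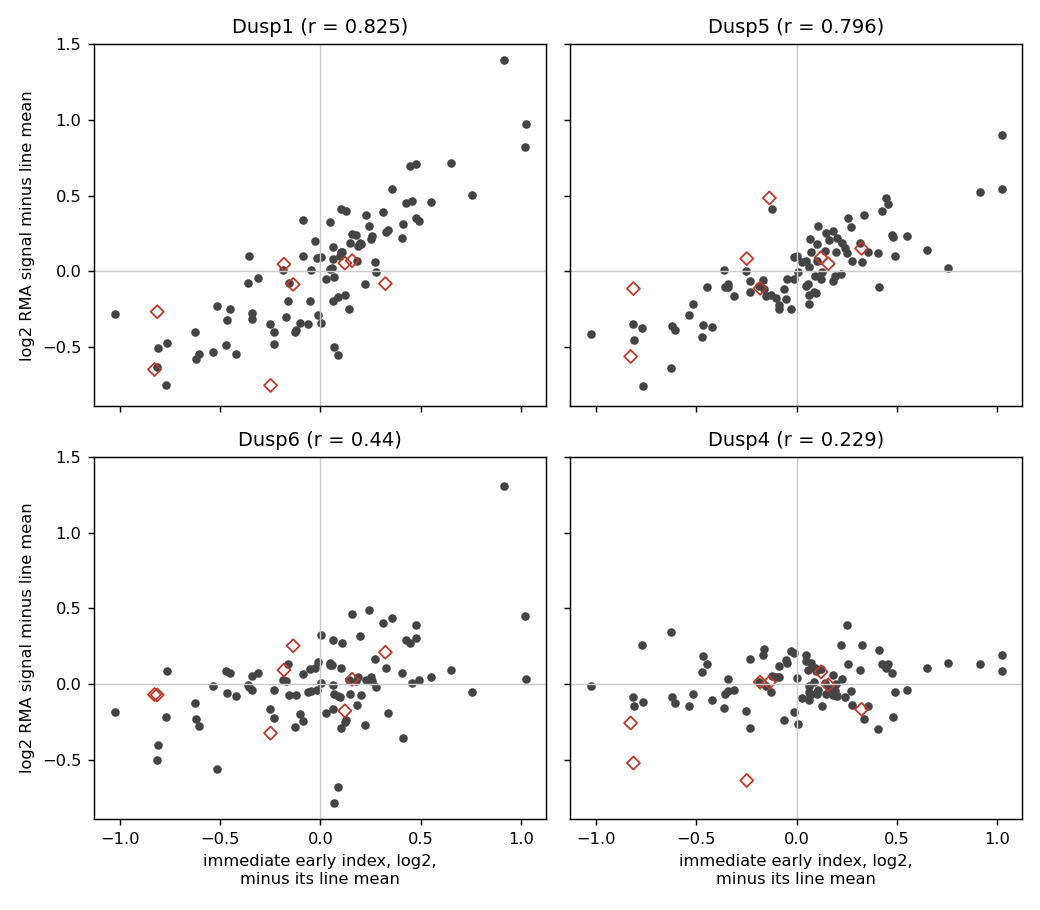
Log2 RMA signal of Dusp1, Dusp5, Dusp6 and Dusp4 (vertical axes) against the mean log2 signal of 9 immediate early genes (horizontal axes), each minus its line mean, on 97 arrays, with the 8 arrays that stand apart as open diamonds. The points of Dusp1 (r = 0.825) and Dusp5 (r = 0.796) rise with the index, those of Dusp6 (r = 0.44) less so, and those of Dusp4 (r = 0.229) hardly.

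Immediate early genes themselves were lower in sP for 3 of 9 (Egr1 -0.69, Egr4 -0.70 and Arc -0.72, by limma) and were called in no other pair. Dusp1 differed by 0.028 and Dusp5 by -0.063 in sP/sNP, neither of them called. In sP the Dusp1 signals had a lowest value of 9.36, a median of 9.53 and a highest value of 10.07, against 9.18, 9.63 and 9.91 in sNP, overlapping throughout.

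Phosphatases of other cell types were set beside the markers of those cells. Ptpn6, the leukocyte enzyme SHP1, followed the microglial index within lines (r = 0.616, rho = 0.586, adjusted permutation p = 2.67e-05, positive in 10 of 10 lines, r = 0.606 without AA 17 and P 9). Ptprc, the leukocyte antigen CD45, did so less closely (r = 0.374, rho = 0.283, adjusted permutation p = 0.000293, positive in 8 of 10 lines, r = 0.34 without the same arrays). Ptprb, the endothelial phosphatase VE-PTP, followed the endothelial index (r = 0.387, rho = 0.376, adjusted permutation p = 0.000208, positive in 8 of 10 lines, r = 0.439 without LAD2 11 and LAD2 20). Ptprz1, a phosphatase of glia and their precursors, had r = -0.163 with the astrocyte index (rho = -0.212, adjusted permutation p = 0.184 for r and 0.0549 for rho, r = -0.107 without ANA 8 and P 9). None of these 4 genes was called in any pair.

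Ptpn3, a relative of Ptpn4 singled out after its values were seen, varied most between animals of a line. In HAD1 its log2 signals ran from 5.85 through a median of 7.52 to 10.02, in LAD1 from 5.66 through 6.13 to 9.15, and in AA from 5.47 through 6.24 to 9.77. ANA arrays ran only from 5.55 to 6.39. Its differences of 0.88 ± 0.59 in HAD1/LAD1 and 0.52 ± 0.36 in AA/ANA were not called by limma (adjusted p = 0.742 and 0.831), and each lay within the spread between animals. The AA/ANA value rested on AA 17, the highest AA array, as the other AA arrays lay at or below 6.92: without AA 17 the difference was 0.153. The small positive differences in P/NP (0.156) and HAD2/LAD2 (0.22) were -0.016 without P 9 and -0.019 without HAD2 2.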

How the data were processed

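The deposited values are log2 signals that the authors summarised with RMA, per the submitters' processing notes (version not given in the sources used here), from 25 ng of total RNA amplified in 2 cycles, per the labels' protocols. They were used as deposited. Of 31099 probe sets 57 controls were left out, and of the 31042 tested 20826 carried 1 symbol, 436 several and 9780 none. Genes were read from the brightest probe set, and all 55 symbols are current in RefSeq. Each pair, and all arrays with 1 mean per line, were fitted by lmFit and eBayes of limma 3.58.1 under R 4.3.3, two-sided, with Benjamini-Hochberg adjustment over 31042 probe sets. The fits were tested on simulated data. Relations used 100000 permutations within lines. Members, lists and tests were chosen with earlier results of these data known.

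Neighbours and promoters came from RefSeq tables of GRCr8, a build the files do not name; neighbours use gene order only. Named genes were those called in a pair, in the average or in the F test, or in a pair without the arrays that stand apart, all Ptprj probe sets, Ptprcap, at most 4 called genes per list, and called neighbours among 5 genes on each side. An array stands apart where 50 probe sets that separate its pair place it over 0.3 from its label. Animal numbers are shared within P/NP and sP/sNP; the labels do not call them pairs. Alternatives were quantile normalization, array weights, a filter on the dimmest probe sets, covariates, the mean of probe sets, an animal-number block and leaving out arrays. The number of arrays limits the precision. The limma p-values set a difference against the spread between animals within lines, except where the 5 line differences served as replicates. Those of the relations come from the permutations within lines.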

Additional observations from a re-analysis of the deposited data

Results flagged for a closer look

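Of 74 combinations of a line and a named probe set that were examined, 9 had an array standing apart from the rest of its line. Some of these probe sets were singled out after their values were seen, so the count cannot be set against a chance rate. For the dimmer Ptprj probe set these were HAD1 28 (11.2, the other HAD1 arrays from 8.69 to 9.77), LAD1 37 (8.56, the others from 10.75 to 11.44), ANA 20 (9.77, the others from 10.51 to 11.16) and sNP 1 (10.15, the others from 9.43 to 9.76). The first 3 are among the 8 arrays that do not follow their labels, and sNP 1 is not. For Ptpn11, sNP 1 had 11.6, and the other sNP arrays lay between 11.82 and 12.002. For Ptpn3, AA 17 had 9.77, and the other AA arrays lay between 5.47 and 6.92. For the dimmer probe set of Ptpn4, ANA 20 had 7.54 (the others from 8.60 to 9.31). For that of Ptprd, AA 19 had 7.64 (the others from 5.42 to 5.69) and ANA 20 had 7.47 (the others from 5.64 to 6.02). AA 19 and ANA 20 are among the 8 arrays, and AA 17 is not.

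Differences between the preferring and the non-preferring line were unequal over the 5 pairs, by limma's F test, for the dimmer Ptprj probe set (adjusted p = 1.43e-10), Dusp12 (adjusted p = 1.4e-16), Ptprn2 (adjusted p = 1.08e-05), Dusp19 (adjusted p = 0.00308), the dimmer probe set of Ptpn4 (adjusted p = 3.59e-05) and Ptpn18 (adjusted p = 0.016).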

How the results depend on the processing

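The count of called genes moved by over 1.5 times in these cases. In sP/sNP it was 1 with the marker index and 3 with the Gapdh signal as covariate (1.02% and 2.78% of all probe sets, against 12 and 12.9% otherwise). For the F test it was 7 without the 8 arrays and 15 with array weights (17.5% and 27.5%, against 4 and 11.7% otherwise). For the average it was 0 with the 5 line differences as replicates (0% of all probe sets, against 4 and 3.37% otherwise). In HAD1/LAD1 it was 1 with the mean of all probe sets of a gene (0 otherwise, with 1.2% of all probe sets called either way). The dimmer Ptprj probe set gave -0.85 in AA/ANA with array weights and -0.46 in P/NP with the marker index, both then called, and -1.15 in HAD1/LAD1 with the marker index, then not called. The brighter Ptprj probe set gave 0.0050 in P/NP with array weights, a reversed sign, and in sP/sNP -0.070 with the marker index and -0.42 with the Gapdh signal, neither called. Dusp2 gave 0.0019 in sP/sNP with the marker index, also reversed. The relation of Dusp4 to the immediate early index was 0.13 without the 8 arrays. The cause was not tested.

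Leaving out 1 array at a time gave counts from 3 to 20 in sP/sNP (3.32% to 18.8% of all probe sets). Counts were 2 to 3 in HAD2/LAD2, and 0 in P/NP, HAD1/LAD1 and AA/ANA. They were 3 to 4 for the average and 4 to 5 for the F test. Shares of all probe sets in these fits were read for sP/sNP only. For the dimmer Ptprj probe set the differences then ran from -0.56 to -0.43 (P/NP), -1.73 to -1.37 (HAD1/LAD1), 1.353 to 1.54 (HAD2/LAD2), -0.90 to -0.63 (AA/ANA) and 0.66 to 0.79 (sP/sNP). For the brighter Ptprj probe set they ran from -0.17 to -0.048, 0.034 to 0.119, -0.064 to 0.0041, -0.154 to -0.017 and -0.47 to -0.34 in the same order, and the sign in HAD2/LAD2 turned without LAD2 16 or LAD2 17.

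With the animal number as a block, sP/sNP had 13 called genes (16.2% of all probe sets) and P/NP none (0, with 0.635% of all probe sets). Whether the numbers pair the animals was not settled. Same-numbered arrays deviated together (r above 0.1) in 5 of 9 pairs in sP/sNP, with r from -0.22 to 0.56. In P/NP they did so in 6 of 10, with r from -0.59 to 0.77. Arrays with different numbers were not compared in this way. Quantile normalization and leaving out the dimmest 25% of probe sets moved none of the 7 counts by over 1.5 times. The number of arrays limits all differences.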
